A study of Gallus gallus with 4 samples.

Results

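Prehierarchical granulosa cells of the chicken were compared with and without a FOXL2 expression plasmid, as 1 library against 1 library. These 2 libraries, of 4 in the series, were chosen by their labels: primary cells of small yellow follicles given pcDNA3.1-FOXL2, and the same kind of cells given pcDNA3.1 without the insert. The cells of both came from hens aged 26 weeks, were kept in M199 medium with 5% serum at 39°C, received the plasmid with Lipofectamine after 18 h and were collected 48 h later. The other 2 libraries hold preovulatory granulosa cells of F2 to F4 follicles, with the FOXL2 plasmid and with the control plasmid. Their labels give the same hen age of 26 weeks, 5% serum and 39°C. The 18 h before the plasmid and the 48 h after it were also the same. Transfection with a plasmid reaches only some of the cells of a culture, and each library averages over all of them. The labels do not say how many hens or cultures stand behind each library.

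Granulosa cells line the ovarian follicle and nourish the oocyte. In the hen, small yellow follicles wait in a prehierarchical pool from which a follicle is selected to grow. After selection its granulosa cells become responsive to luteinizing hormone and make progesterone. FOXL2 is a forkhead transcription factor that binds DNA and can raise or lower the transcription of its targets. In mouse it keeps granulosa cells in the ovarian fate, and in vertebrate ovaries it is known for its part in the control of aromatase, the enzyme that makes oestrogen. The plasmid adds FOXL2 to cells of an ovarian lineage in which the gene is normally active.

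The deposited tables pair Ensembl identifiers with values and hold no gene symbols. None of the 13819 identifiers matched the gene table used here, so genes are described by their levels, 4 of them by identifier, and no function is given to any. The levels of FOXL2 itself, of the granulosa markers and of markers of other cell types are not analysed here. The plasmid and cell labels therefore stand without a check from the data. The header of the prehierarchical FOXL2 value column carries an added suffix 2, that of the preovulatory control an added suffix 1, and the other 2 tables carry no such suffix. No label explains these suffixes, and their part in any result was not tested.

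The values are FPKM, fragment numbers divided by transcript length and library size. With FOXL2, 12705 genes were listed and with control 12724, of which 12187 were in both tables. All listed values summed to 556844 FPKM with FOXL2 and to 534484 FPKM with control. Fragment counts are unknown. Low values tended to fall on steps. This was read on genes listed in both tables with 1 listed transcript and with both values inside the given range. At 0.1 to 1 FPKM, 64.0% of the FOXL2 to control ratios of 1182 such genes lay within 0.03 log2 units of a ratio of whole numbers up to 5. At 10 to 30 FPKM this held for 24.5% of 2900 such genes. Both shares are after a shift between the libraries that was picked to make the first as large as possible, and the ratios of the second class spread less widely. If the steps are whole fragments, that shift puts the FOXL2 library at 0.98 times the depth of the control library, but it could not show a difference by a factor such as 2.

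The first question was how far the FOXL2 library departs from its control. By composition the 2 libraries were close: after each was scaled to the same total, 5.83% of all FPKM would have to move between genes to turn one into the other. The same measure was 6.12% between the FOXL2 and control libraries of preovulatory cells. It was 19.2% between the FOXL2 libraries of the 2 phases and 17.8% between their control libraries. Between unlike plasmids it was 18.6% for prehierarchical FOXL2 and preovulatory control. For prehierarchical control and preovulatory FOXL2 it was 17.6%. Libraries of the 2 phases with the same plasmid were thus no closer than those with unlike plasmids. With 1 library a side there is no replicate error to set beside these values.

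The most abundant transcripts were largely shared. The 10 most abundant genes were the same in both prehierarchical libraries, and 95 of the top 100 and 926 of the highest 1000 were shared. The shared top 10 ran from 3823 to 14361 FPKM with FOXL2 and from 3776 to 12493 FPKM with control. All 10 were higher with FOXL2, by 1.01 to 1.21 times, and 8 of them were higher as a share of their library. They held 14.5% of all FPKM in the FOXL2 library and 13.7% in the control library.

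Each gene was then given a log2 ratio of (FPKM + 1), FOXL2 over control, for the 10546 genes whose mean over both libraries reached 1 FPKM. The 1 FPKM added to each value understates the change of low genes. The ratios centred a little below 0, with a median of -0.05, quartiles of -0.22 and 0.12 and an SD over genes of 0.35. Ratios above 0 belonged to 42.3% of genes. The 5th and 95th percentiles were -0.54 and 0.46. The extremes were -3.28 and 4.05.

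Which direction prevailed depended on the size of the difference. From 1.2-fold upwards, 1282 genes were higher with FOXL2 (12.2% of genes tested) and 2234 lower (21.2%). From 1.5-fold the numbers were 331 higher (3.14%) and 417 lower (3.95%). From 2-fold they turned to 110 higher (1.04%) and 67 lower (0.635%). From 4-fold they were 20 higher (0.19%) and 14 lower (0.133%), and from 8-fold 3 higher (0.0284%) and 2 lower (0.019%). At 1.2-fold the lower side was thus the larger, with higher genes 36.5% of both. That share was 47.8% with the median ratio set to 0 (1621 higher, 1769 lower) and 26.3% after rescaling to TPM, which gives each library the same total (1057 higher, 2965 lower). The split at 2-fold also moved with the settings. Higher genes made up 62.1% of the 177 genes 2-fold apart or more, but 49.9% with a pseudocount of 0.1 FPKM (176 higher, 177 lower). They made up 50.6% with TPM (130 higher, 127 lower), which alters both the library totals and the weight of the added 1. With the totals alone set equal they made up 56.4% (101 higher, 78 lower).

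The 2 directions differed in expression level. Among genes of 1 to 3 FPKM, 32 were higher and 41 lower by 2-fold or more, 2.47% and 3.17% of 1295 genes. At 3 to 10 FPKM there were 33 and 26 of 2504 genes. At 10 to 30 FPKM there were 27 higher and 0 lower of 3608, at 30 to 100 FPKM 13 and 0 of 2314, and from 100 FPKM upwards 5 and 0 of 825. The median ratio was highest in the most abundant class, with values of -0.07, -0.10, -0.08, -0.01 and 0.06 in these 5 classes. The SD of the ratios narrowed from the lowest class to the highest, with values of 0.53, 0.41, 0.30, 0.25 and 0.22.

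**Figure D1:**
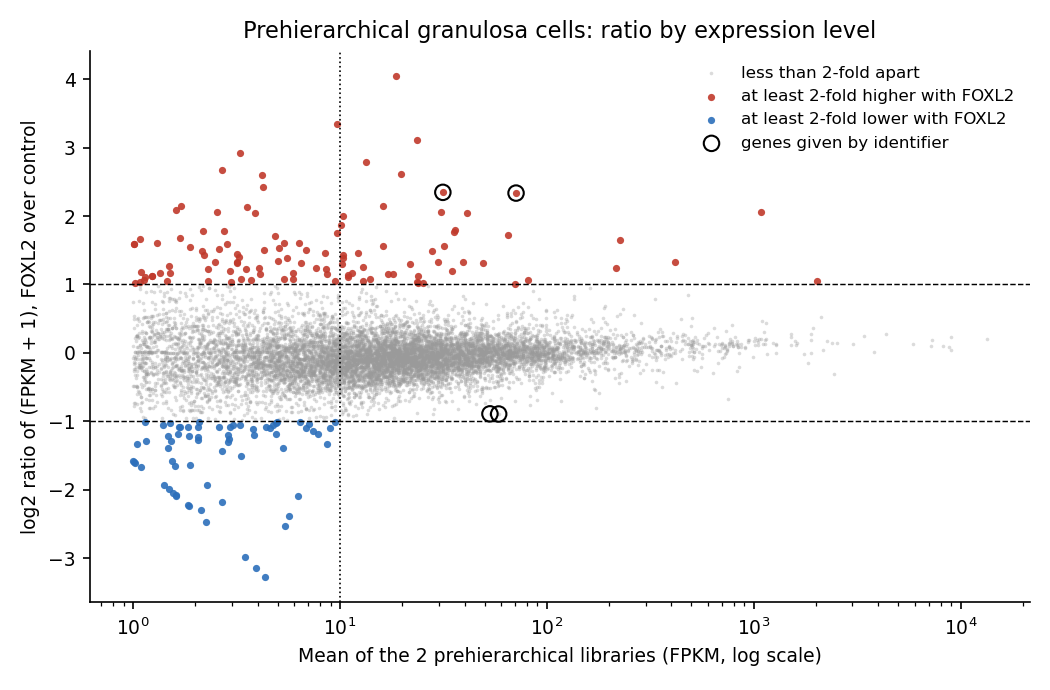
Each point is a gene of the 2 prehierarchical libraries, with the mean FPKM on a log axis and the log2 ratio of (FPKM + 1), FOXL2 over control, on the vertical axis. Dashed lines mark 2-fold and the dotted line marks 10 FPKM. To the right of it lie 45 genes at least 2-fold higher with FOXL2 and 0 at least 2-fold lower.

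At a mean of 10 FPKM or more, 45 of 6747 genes were higher by 2-fold or more with FOXL2 (0.667%) and 0 were lower by as much (0%). A gene can reach this mean through its higher library alone. Control values of the 45 genes began at 1.24 FPKM, with a lower quartile of 6.46 FPKM, and their FOXL2 values began at 14.99 FPKM. Some of them thus passed only through the FOXL2 library, where they are high. This limit of 10 FPKM was chosen after the levels of the lower genes had been seen. The lower side was not empty, but it stopped short of 2-fold. At 1.5-fold there were 129 higher (1.91%) and 114 lower (1.69%), and at 1.8-fold 55 higher (0.815%) and 12 lower (0.178%). The lowest ratio at this level was -0.96, whereas the highest was 4.05. The 2-fold split was 40 to 3 after rescaling to TPM, 39 to 1 with the totals alone set equal and 47 to 0 with the median ratio set to 0. The 1.5-fold split depended on the scaling: higher genes were 53.1% of it as deposited, 36.0% after rescaling (104 higher, 185 lower), 37.4% with the totals alone set equal (99 higher, 166 lower) and 64.3% with the median set to 0 (160 higher, 89 lower).

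The preovulatory libraries, taken with the same filter on their own mean, had the opposite split at 10 FPKM or more. Their counts are as deposited, and no rescaling was run for them. Their listed values summed to 528405 FPKM with FOXL2 and to 540243 FPKM with control, while in prehierarchical cells the FOXL2 total was the larger. The part of these totals in the opposite split was not tested. At 10 FPKM or more, 7 of 7138 genes were higher with FOXL2 by 2-fold or more (0.0981%) and 31 were lower (0.434%). At 1 to 3 FPKM the lower side was the larger in both phases. In preovulatory cells the numbers there were 29 higher and 41 lower of 1207 genes, 2.40% and 3.40%. The difference between phases rests on 1 library per group and could not be tested.

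**Figure D2:**
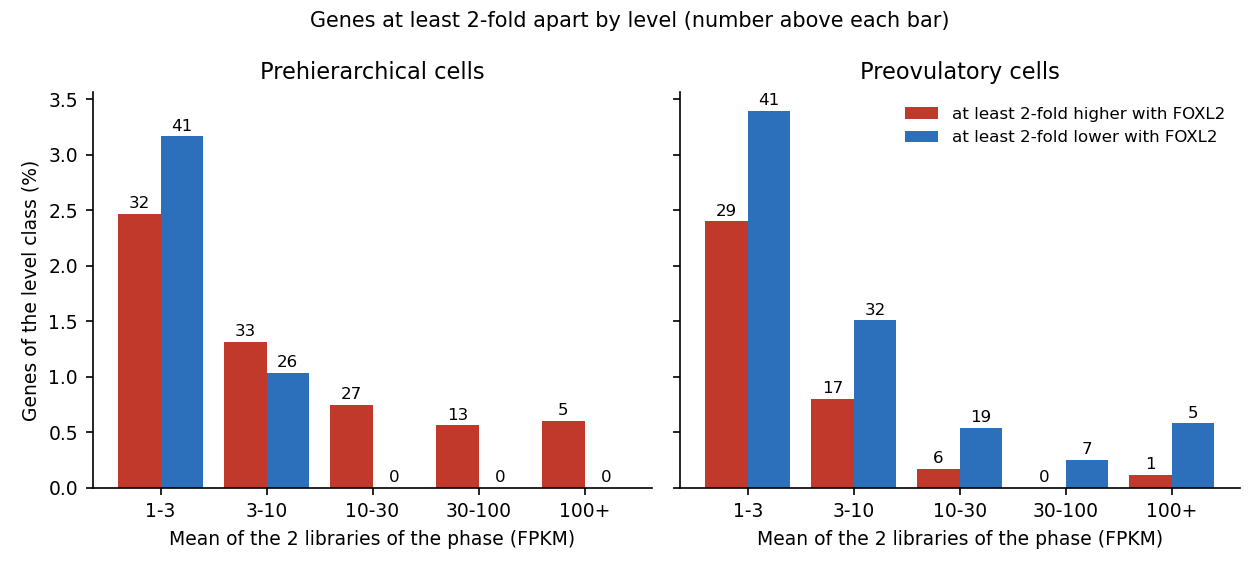
Bars give the percentage of genes of each level class (mean FPKM of the 2 libraries of the phase) at least 2-fold higher or lower with FOXL2, with the number of genes above each bar. In prehierarchical cells on the left the lower bars end at 10 FPKM, while 45 higher genes lie above it. In preovulatory cells on the right lower genes outnumber higher ones in each of the 5 classes.

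The 110 genes higher by 2-fold or more were chosen on these 2 libraries, so the direction of their levels is given by the choice. Together they held 1.39% of all FPKM in the FOXL2 library and 0.531% in the control library. Their median level was 9.11 FPKM with FOXL2 and 2.63 FPKM with control, with quartiles of 4.54 and 30.4 FPKM with FOXL2 and of 0.70 and 8.43 FPKM with control. For 48 of them the mean was below 5 FPKM, and 7 were missing from the control table. A gene missing from 1 table passes the filter only if the other holds at least 2 FPKM, so such genes had to differ.

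Most of that share came from 5 abundant genes. Those with a mean of 100 FPKM or more held 1.03% of all FPKM with FOXL2 and 0.414% with control. The most abundant of them stood at 2734 FPKM with FOXL2 and 1323 FPKM with control, a log2 ratio of 1.05. The next stood at 1747 FPKM with FOXL2 and 418.2 FPKM with control, a log2 ratio of 2.06 and the widest of the 5. The third stood at 592.6 FPKM with FOXL2 and 235.8 FPKM with control. The remaining pair had 344.5 and 305.4 FPKM with FOXL2, against 109.1 and 128.2 FPKM with control. In preovulatory cells the log2 ratios of these 5 genes were -0.90, 1.45, -1.80, -0.87 and 0.83 in the order given. Thus 2 of them were on the higher side there too and 3 were on the lower side. Over all genes of 10 FPKM or more the shares were near this, at 49.8% above 0 and 50.1% below 0.

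The 67 genes lower by 2-fold or more were rare transcripts. They held 0.0158% of all FPKM with FOXL2 and 0.0649% with control. Their median was 0.79 FPKM with FOXL2 and 4.21 FPKM with control, and none exceeded 12.98 FPKM in the control library. The mean was under 5 FPKM for 55 of them and under 3 FPKM for 41. With FOXL2 15 of them were missing, and those had to differ to pass the filter. Of the 14 genes at least 4-fold lower, 9 were missing from the FOXL2 table.

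Presence in a single table was a matter of low values on both sides. The FOXL2 table alone listed 518 genes and the control table alone 537. Their median was 0.23 FPKM in the FOXL2 table and 0.22 FPKM in the control table, and 80.1% and 78.6% of them lay under 0.5 FPKM. The highest reached 6.57 FPKM with FOXL2 and 8.71 FPKM with control.

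Near the 2-fold line the counts are a matter of small steps. The 3 genes just inside it on the higher side had log2 ratios of 1.005 to 1.018, and the 3 just outside 0.983 to 0.997. On the lower side the 3 just inside had ratios of -1.006 to -1.011, and the 3 just outside -0.980 to -0.985.

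In absolute FPKM as deposited, the gains were concentrated and the losses spread out. Over all genes, 5702 were higher with FOXL2 by a summed 45364 FPKM, and 7273 were lower by a summed 23004 FPKM. These sums are of values as deposited, and the excess of gain over loss is the difference of the library totals. Those totals were 556844 FPKM with FOXL2 and 534484 FPKM with control. With equal totals the summed gain and the summed loss would be the same. The 86 largest gains held 50% of the summed gain, while 684 genes were needed to hold 50% of the summed loss. The 4 largest gains made up 13.4% of the gain and the 4 largest losses 5.19% of the loss. These shares too are of values as deposited, and they were not computed with equal totals. The largest gain belonged to the most abundant gene of both libraries, at 14361 FPKM with FOXL2 and 12493 FPKM with control, a log2 ratio of 0.20. The largest loss was at 2188 FPKM with FOXL2 and 2703 FPKM with control, a log2 ratio of -0.30. The next largest loss was at 581.9 FPKM with FOXL2 and 927.2 FPKM with control, a log2 ratio of -0.67.

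Among the 3139 genes listed in both tables at a mean of 30 FPKM or more, the 2 highest and the 2 lowest ratios are given by identifier. ENSGALG00000024011 had the highest ratio, with 53.2 FPKM with FOXL2 and 9.66 FPKM with control, a log2 ratio of 2.35. In preovulatory cells it was missing from the FOXL2 table, so listed at 0, and stood at 1.93 FPKM with control. It was thus a transcript mainly of the prehierarchical libraries, and highest in the one with FOXL2.

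ENSGALG00000026098 followed, with 119.1 FPKM with FOXL2 and 22.8 FPKM with control, a log2 ratio of 2.34. In preovulatory cells it stood at 26.9 FPKM with FOXL2 and 47.2 FPKM with control, which is a log2 ratio of -0.79. The prehierarchical FOXL2 library was the highest of the 4 for this gene and the prehierarchical control the lowest.

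At the lower end, ENSGALG00000006689 had 40.7 FPKM with FOXL2 and 76.3 FPKM with control, a log2 ratio of -0.89. In preovulatory cells it had 88.9 FPKM with FOXL2 and 46.2 FPKM with control, a log2 ratio of 0.93. ENSGALG00000014537 had 36.9 FPKM with FOXL2 and 69.3 FPKM with control, also a log2 ratio of -0.89, and in preovulatory cells 19.9 FPKM with FOXL2 and 9.27 FPKM with control, a log2 ratio of 1.02. Both lower genes thus lay under 2-fold in prehierarchical cells, and both were on the higher side in preovulatory cells. The tables list 2 transcripts for ENSGALG00000014537 and 1 for each of the other 3 genes.

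**Figure D3:**
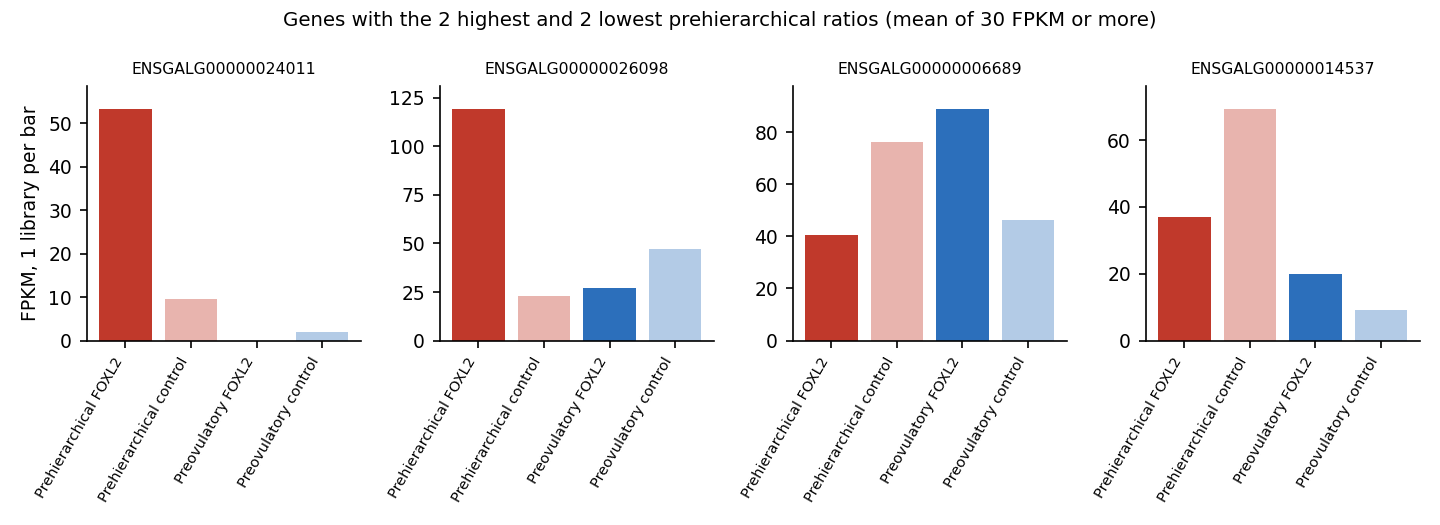
Bars give the FPKM of 4 genes, each on its own axis, in the 4 libraries, 1 library per bar with no replicate. The first pair of genes is highest in the prehierarchical FOXL2 library (53.2 and 119.1 FPKM). The second pair is lower there (40.7 and 36.9 FPKM) than in the prehierarchical control (76.3 and 69.3 FPKM).

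The prehierarchical genes were then followed into the preovulatory libraries, which had no part in choosing them and share no library with the prehierarchical comparison. Of the 45 higher genes of 10 FPKM or more, 38 had a preovulatory ratio below 0 and 7 one above 0, that is 84.4% below 0, against 50.1% of the 6747 genes of that level. Their median preovulatory log2 ratio was -0.79, against 0.00 over all genes of that level. At 2-fold, 15 of the 45 were lower in the preovulatory FOXL2 library and 2 were higher, where 0.445% and 0.163% of all genes of that level were.

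In level, these 45 genes had a median of 34.5 FPKM with FOXL2 and 12.2 FPKM with control in prehierarchical cells, which is how they were chosen. In preovulatory cells the median was 17.1 FPKM with FOXL2 and 35.4 FPKM with control. The prehierarchical FOXL2 and preovulatory control libraries thus had the higher medians, and the other pair the lower ones. The libraries with the higher medians are the same 2 whose value columns carry an added suffix, so the opposite signs of the 2 phases and the suffixes cannot be told apart. All genes of that level had medians of 27.5 FPKM with FOXL2 and 28.2 FPKM with control in prehierarchical cells and of 32.6 FPKM with FOXL2 and 32.5 FPKM with control in preovulatory cells.

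Of the 20 genes at least 4-fold higher in prehierarchical cells, 17 had a preovulatory ratio below 0 and 13 lay 2-fold lower or more, where 49.7% and 0.806% of all genes tested did. Their median was 21.3 FPKM with FOXL2 and 1.08 FPKM with control in prehierarchical cells, and 5.87 FPKM with FOXL2 and 12.3 FPKM with control in preovulatory cells. From the control table of prehierarchical cells 4 of the 20 were missing. All 3 genes higher by 8-fold or more were 2-fold lower or more in the preovulatory FOXL2 library than in its control.

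For the 2-fold lower genes, all at a mean under 10 FPKM, the preovulatory signs were closer to even. Of the 65 genes at least 2-fold higher at such a mean, 78.5% had a preovulatory ratio below 0, against 49.7% of all genes tested. At 1.5-fold and a mean of 10 FPKM or more the directions were alike. There 78.1% of the 114 lower genes were above 0 and 81.4% of the 129 higher genes below 0, against 49.8% and 50.1% of all genes of that level. Of the 67 genes at least 2-fold lower, 38 had a preovulatory ratio above 0, 25 one below 0 and 4 one of 0, where 49.6% of all genes tested were above 0. Their median preovulatory log2 ratio was 0.16. Of the 14 genes at least 4-fold lower, 7 had a preovulatory ratio above 0, 4 one below 0 and 3 one of 0. The median level of the 67 genes was 0.79 FPKM with FOXL2 and 4.21 FPKM with control in prehierarchical cells. In preovulatory cells it was 3.93 FPKM with FOXL2 and 3.32 FPKM with control. For these 67 genes the prehierarchical FOXL2 library, which the choice of genes made low, was the one that stood apart from the other 3.

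**Figure D4:**
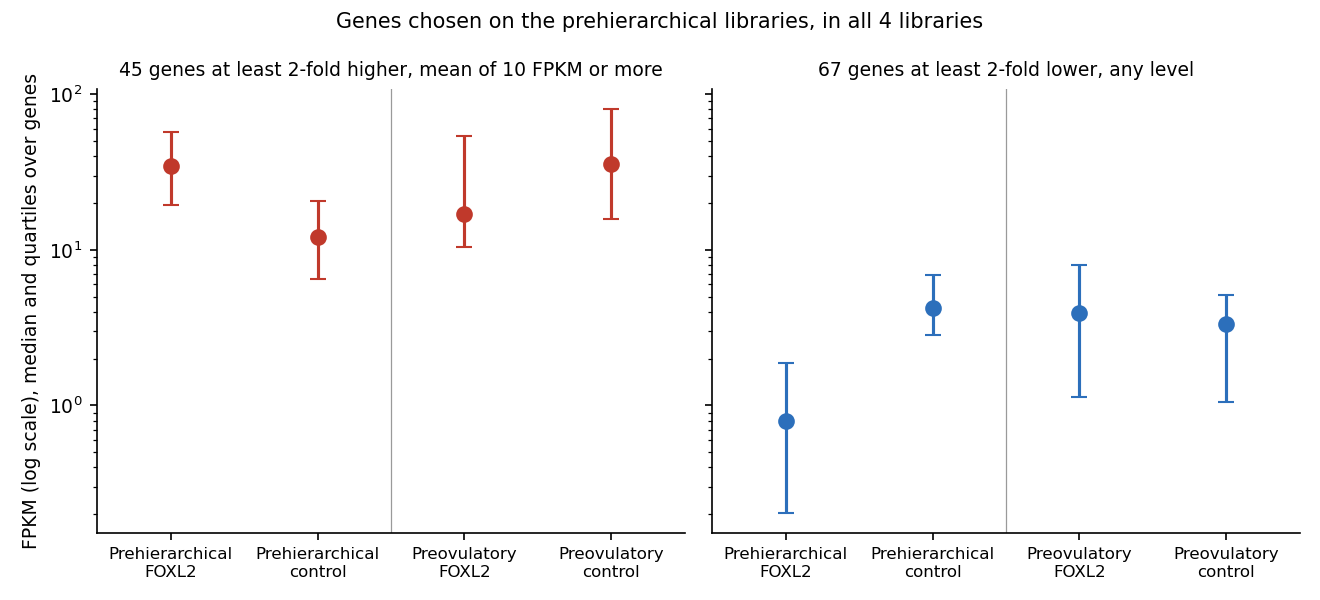
Points are medians and bars are quartiles over genes of the FPKM (log axis) in each of the 4 libraries. On the left are the 45 genes at least 2-fold higher with FOXL2 in prehierarchical cells at a mean of 10 FPKM or more. On the right are the 67 genes at least 2-fold lower there at any level past the filter, with a highest mean of 9.47 FPKM. The panels thus differ in level as well as in direction. The order within the left pair of points of each panel was fixed by the choice of genes. On the left the preovulatory medians run the other way, at 17.1 FPKM with FOXL2 and 35.4 FPKM with control.

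Genes of at least 10 FPKM that were less far apart showed a graded pattern. Grouped by their prehierarchical ratio, the 114 genes at least 1.5-fold lower had a median preovulatory log2 ratio of 0.29, with 78.1% above 0, against 49.8% of all genes of that level. The 959 genes 1.2 to 1.5-fold lower had a median of 0.16. The 2720 genes less than 1.2-fold lower and the 2304 less than 1.2-fold higher had medians of 0.03 and -0.05. For the 521 genes 1.2 to 1.5-fold higher the median was -0.18, for the 84 genes 1.5 to 2-fold higher it was -0.29, and for the 45 genes at least 2-fold higher it was -0.79. The preovulatory ratio was thus lower in each step of the prehierarchical ratio. Genes are not independent replicates, and with 1 library per group no test was made.

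**Figure D5:**
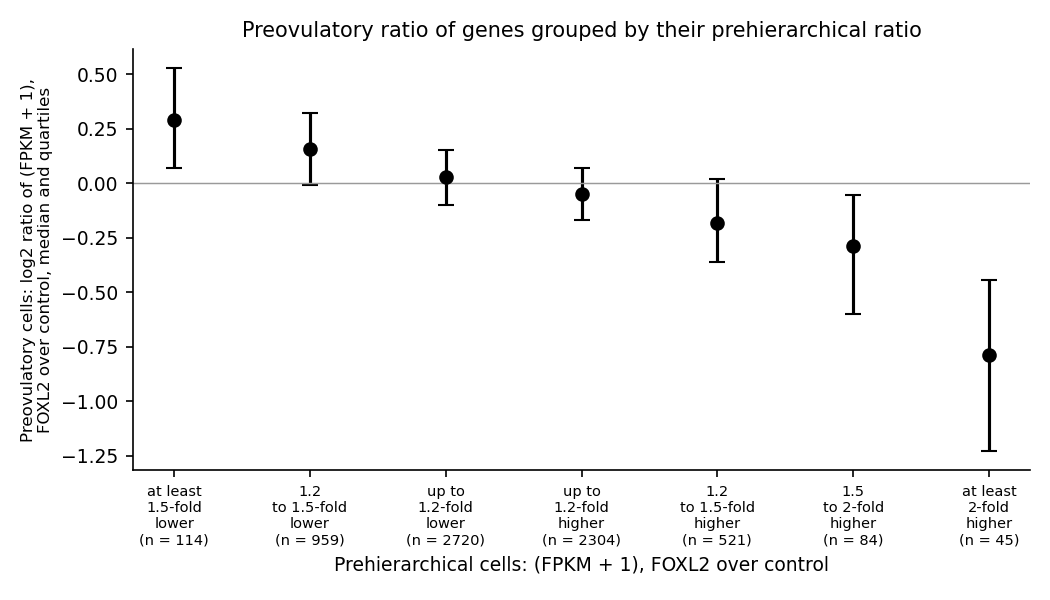
Genes of 10 FPKM or more in prehierarchical cells are grouped along the horizontal axis by their prehierarchical ratio. Points are medians and bars quartiles over genes of the preovulatory log2 ratio of (FPKM + 1), FOXL2 over control. The medians run from 0.29 in the group lowest with FOXL2 in prehierarchical cells to -0.79 in the group highest with it.

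Genes with several transcripts were set beside the rest. The 551 genes with 2 or more listed transcripts had 6 genes 2-fold higher or more and 2 lower, 1.45% of them, and an SD of the log2 ratio of 0.35. The 9995 genes with 1 transcript had 104 and 65, or 1.69%, with an SD of 0.35. For all 12187 genes listed in both tables the transcripts named were the same, and values per transcript were not analysed here.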

How the data were processed

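The authors deposited 1 table per library with a FPKM value per Ensembl gene, per the file headers. Bowtie, RSEM and galGal4 are named in the submitters' processing notes, without versions or settings. The lowest listed value is 0.01 FPKM, and absent genes were set to 0. RSEM can share fragments among similar transcripts, an uncertainty these values do not show. The filter kept genes whose mean over both prehierarchical libraries reached 1 FPKM, and log2((FOXL2 + 1)/(control + 1)) was computed with no further scaling with pandas 2.3.3 and numpy 2.4.6 under Python 3.11.15. With 1 library a side there is no p-value. Depth in fragments is unknown, so no counting interval is given.

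None of 13819 gene or 14609 transcript identifiers matched the reference table, so the 10 gene lists and the cell type markers prepared for this work were not used. The genes given by identifier are the 2 highest and 2 lowest ratios at a mean of at least 30 FPKM among genes in both tables. This comparison, its lists and that rule were chosen with earlier results of these data known. Alternatives were pseudocounts of 0.1 and 5 FPKM, other filters, the median set to 0, rescaling to TPM, equal library totals and genes listed in both tables.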

Additional observations from a re-analysis of the deposited data

Results flagged for a closer look

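Each phase has a single pair of libraries, and the items here moved one way in prehierarchical cells and the other way in preovulatory cells. This difference was not tested, since no group has a replicate. In prehierarchical cells, 45 genes of 10 FPKM or more were 2-fold higher or more with FOXL2. Of these, 38 had a preovulatory ratio below 0, or 84.4%, against 50.1% of the 6747 genes of that level. The opposite signs of the 2 phases cannot be told apart from the added suffixes of 2 of the value columns. The genes given by identifier were picked for extreme prehierarchical ratios, so the prehierarchical part of each difference below is set by the choice. The prehierarchical minus preovulatory difference of the log2 ratios was 3.90 for ENSGALG00000024011. That value takes its missing preovulatory FOXL2 entry as 0, against 1.93 FPKM with control. The difference was 3.12 for ENSGALG00000026098. It was -1.82 for ENSGALG00000006689 and -1.91 for ENSGALG00000014537.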

How the results depend on the processing

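With a pseudocount of 0.1 FPKM, 176 genes were at least 2-fold higher and 177 lower, and 44 and 31 at 4-fold; with 5 FPKM the numbers were 38 and 6, and 5 and 0. With the filter at 5 FPKM they were 62 and 12, and 11 and 3. Rescaled to TPM, which alters both the library totals and the weight of the added 1, 127 genes were at least 2-fold lower and 24 at least 4-fold lower. With genes listed in both tables, 5 were at least 4-fold lower. At a mean of 10 FPKM or more, the 0 genes at least 2-fold lower became 1 with a pseudocount of 0.1 FPKM, 1 with the library totals alone set equal and 3 after rescaling, and the 114 at least 1.5-fold lower became 50 with a pseudocount of 5 FPKM and 185 after rescaling. Of 117 values under the alternatives, 97 stayed within 1.5 times the reported one (0.1 log2 units for the median of all genes). Some of these could not move, so this number is no measure of stability. The other filters leave the counts at 10 FPKM or more as they are, and no filter alters the ratio of a gene given by identifier. The log2 ratios of the 4 genes given by identifier kept their signs. The side with more genes changed at 2-fold with a pseudocount of 0.1 FPKM, and at 1.5-fold and 10 FPKM or more after rescaling (104 higher, 185 lower) and with equal totals (99 higher, 166 lower). The equal totals and the alternatives for the counts at 10 FPKM were chosen after seeing the data. No alternative was run for the preovulatory counts, or for the preovulatory ratios of genes grouped by their prehierarchical ratio. No paired analysis was possible because each group has 1 library, and for the same reason no library could be left out. The gene list alternatives were not run, since no symbols were assigned.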
